A study of Mus musculus with 6 samples.

Results

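The 10 genes described here act in cholesterol export, its release from lysosomes, or the pathway of the liver X receptors (LXRs) that sense its excess. The rule lists them by name, and the list was drawn up with earlier results of these data known: Abca1, Abcg1, Nr1h3, Mylip, Pltp, Scarb1, Cyp27a1, Npc1, Npc2 and Lipa. All 10 were among the 24391 genes of the count table, and all 10 were among the 15937 genes with enough reads to test. RNA came from brachiocephalic arteries, labelled as atherosclerotic lesion tissue holding several cell types, of 3 wild type (WT) mice and 3 Col15a1 -/- (KO) mice, and each library is 1 mouse by the series design. All mice had a C57BL/6 strain background and ate a Western diet for 18 weeks. The series title describes the deletion of Col15a1, the gene of the alpha chain of collagen XV, as specific to smooth muscle cells; the driver of the deletion, the age of the mice and any Apoe allele are not given in the sources used here. The comparison asks how KO lesions differ from WT lesions in these 10 genes.

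Cholesterol from lipoproteins that a cell has taken up is freed from its ester in the lysosome and leaves that compartment through the Niemann-Pick proteins. Excess sterol is converted in part to oxysterols, which activate LXRs, nuclear receptors that pair with retinoid X receptors on DNA. Their targets include the membrane transporters that load cholesterol onto apolipoprotein A-I and high-density lipoprotein, and a ubiquitin ligase that lowers lipoprotein uptake. In atherosclerotic arteries these genes are known for their activity in lipid-loaded macrophages, and smooth muscle cells and fat cells use several of them too.

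Total counts ran from 22223584 to 26982005 per library, and the 10 genes together took 0.121% (KO 3) to 0.328% (WT 3) of them, so counting error was small beside the spread between mice. Col15a1 was at 494 ± 83.8 CPM (read counts scaled to library size by the TMM method) in WT mice and 161 ± 60.6 CPM in KO mice (SD, n = 3 each), with each KO library below the WT libraries. WT 2 and KO 3 stood apart: 10 sympathetic neuron markers summed to 2128 CPM in WT 2, to 4431 CPM in KO 3, and to between 162 and 230.5 CPM in the other 4 libraries. Lesion macrophages and smooth muscle are 2 of the cell types the labels name. All 14 macrophage and all 8 smooth muscle markers had reads. Every marker of the other lists had reads too, so this does not show which cells were present. The 8 smooth muscle markers summed to 5396 to 9554 CPM in WT and 5731 to 14295 CPM in KO. The 14 macrophage markers summed to 6458 to 8561 CPM in the WT libraries and to 5442, 4533 and 1504 CPM in KO 1, KO 2 and KO 3, so KO 3 had the highest neuronal sum and the lowest sum of these 14 markers. The 7 resident macrophage markers summed to 837 CPM in KO 3, above the 403 to 774 CPM of the WT libraries. In bulk tissue fewer cells of a type and less RNA per cell cannot be told apart.

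Across the 10 genes, 8 had a negative log2 fold change in KO, against 39.1% of all genes tested, and the median was -0.49, against 0.068 over all genes tested. Without KO 3 the median was -0.31, against -0.0030 over all genes, and 7 of the 10 were lower. For 6 of them (Abca1, Abcg1, Mylip, Pltp, Npc1 and Npc2) every KO library lay below every WT library, an order that 8.38% of all genes tested showed. For Cyp27a1 every KO library lay above every WT library, as for 8.33% of all genes tested, and the groups overlapped for Lipa, Nr1h3 and Scarb1. None of the 10 passed a Benjamini-Hochberg adjusted p of 0.05 in edgeR's quasi-likelihood test, nor did any gene of the table (0% called). By unadjusted p under 0.05, 3 of the 10 were lower in edgeR (Npc2, Mylip and Abcg1), against 3.98% of all genes, and 1 higher (Cyp27a1), against 4.02%. DESeq2 called none of the 10 and 0.347% of all genes, and limma-voom called none of either. With 3 libraries a group and this spread, absence of a call does not show equal levels.

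**Figure D1:**
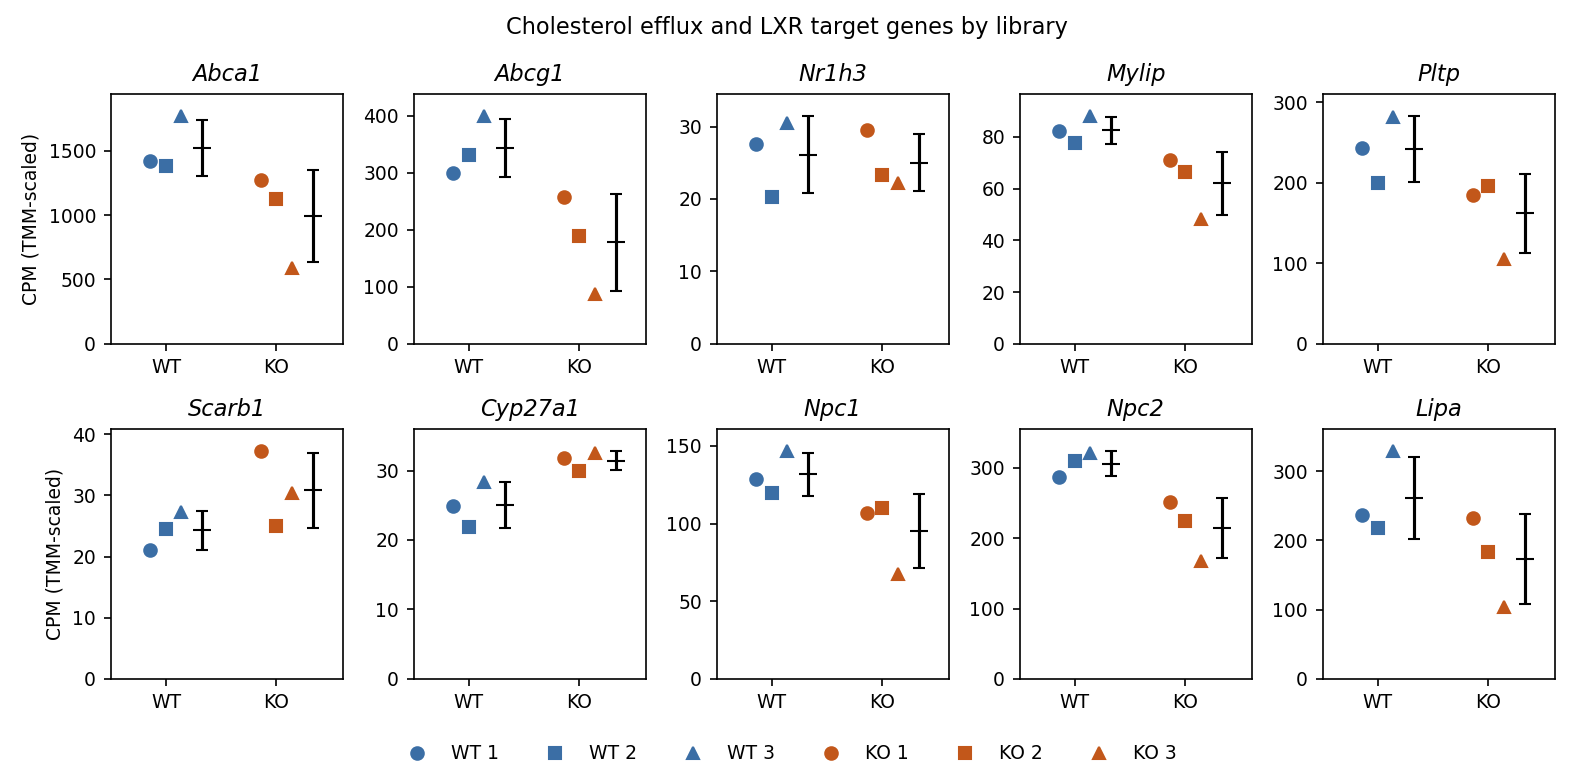
Level of each gene in CPM (y axis, from 0, its own scale per panel) in the 3 WT and 3 KO libraries, with the group mean and SD in black. KO 3 is the lowest library for 7 of the 10 genes, and Cyp27a1 is above the WT libraries in every KO library.

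Among the exporters, Abca1 encodes the transporter that hands cholesterol and phospholipid to lipid-poor apolipoprotein A-I. It lies on chromosome 4 (53043661 to 53172767, mm9, minus strand), the chromosome of Col15a1, 5.72 Mb beyond the end of that gene. Abca1 was at 1418, 1378 and 1768 CPM in WT 1, WT 2 and WT 3, and at 1270, 1125 and 588 CPM in KO 1, KO 2 and KO 3. The groups did not overlap, but KO 1 lay just under the lower WT libraries and KO 3 far below the other KO libraries. The means were 1521 ± 215 CPM in WT against 995 ± 359 CPM in KO (SD, n = 3 for both), a 1.53-fold lower level. The log2 fold change was -0.61 (SE 0.32, edgeR adjusted p 0.682), and -0.35 without KO 3. Abca1 ranked 53rd of the tested genes by mean CPM, and its transcript is long, so its level per length is given further on.

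The sequence before the Abca1 start is shown because it holds the only LXR-type element found in the windows searched. RefSeq promoter sequences (GRCm38.p6, a later build than the mm9 counts) were matched for 7 of the 10 genes: Abca1, Nr1h3, Mylip, Pltp, Cyp27a1, Npc2 and Lipa. LXRs bind pairs of half-sites spaced by 4 bases, searched on both strands as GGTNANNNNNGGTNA, a loose form written with the known Abca1 element in mind. In the 250 bases before the start, it matched Abca1 and none of the other 6 genes, against 0.621% of 32851 mouse promoters. The match starts 67 bases before the Abca1 start, on the opposite strand. The sterol regulatory element TCACNCCAC (1.05% of promoters) and the lysosomal gene element TCACGTGA (0.785%) matched none of the 7. The E-box CACGTG, which lies within the lysosomal element, matched Abca1 (6.02% of promoters), and the GC box GGGCGG matched Abca1, Npc2, Cyp27a1, Pltp and Mylip (32.7%). Npc2, a lysosomal gene lower in KO, and Cyp27a1, higher in KO, are printed for comparison, each 5′ to 3′ on the strand of its gene with the matches in capitals. The Abca1 window is chr4:53159896-53160145 (minus strand), the Npc2 window chr12:84773113-84773362 (minus strand) and the Cyp27a1 window chr1:74713285-74713534 (plus strand). In Abca1 the capitals mark, in order, a GC box, the E-box, a GC box and the LXR-type element. In Npc2 and Cyp27a1 they mark GC boxes.
Abca1: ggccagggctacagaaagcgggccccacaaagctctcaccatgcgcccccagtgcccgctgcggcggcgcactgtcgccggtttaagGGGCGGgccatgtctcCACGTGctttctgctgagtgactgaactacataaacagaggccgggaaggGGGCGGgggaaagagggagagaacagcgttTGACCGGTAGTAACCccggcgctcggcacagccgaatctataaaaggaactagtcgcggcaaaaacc
Npc2: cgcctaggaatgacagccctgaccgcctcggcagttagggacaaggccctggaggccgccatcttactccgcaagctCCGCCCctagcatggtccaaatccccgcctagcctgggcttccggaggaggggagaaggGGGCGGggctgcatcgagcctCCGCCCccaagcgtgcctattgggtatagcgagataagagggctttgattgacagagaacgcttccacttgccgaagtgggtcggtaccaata
Cyp27a1: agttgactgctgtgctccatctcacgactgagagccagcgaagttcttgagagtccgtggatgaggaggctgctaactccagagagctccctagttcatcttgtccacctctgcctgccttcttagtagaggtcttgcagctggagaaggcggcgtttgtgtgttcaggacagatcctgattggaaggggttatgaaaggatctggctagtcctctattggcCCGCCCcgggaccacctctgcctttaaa
A match describes letters only. Binding of LXR was not measured, and LXR elements outside these windows were not searched.

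Abcg1 encodes a transporter that adds cholesterol to formed high-density lipoprotein particles (chromosome 17, 31194639 to 31254926, mm9, plus strand). It was at 300.2, 331 and 400 CPM in the WT libraries and at 257, 190 and 87.7 CPM in KO 1, KO 2 and KO 3. The groups did not overlap, and KO 3 was again the lowest. Abcg1 had the largest difference of the 10 genes: 343 ± 50.9 CPM in WT against 178 ± 85.3 CPM in KO, 1.93-fold lower, with a log2 fold change of -0.95 (SE 0.39, edgeR adjusted p 0.617). It was -0.62 without KO 3 and -1.38 without KO 1. Centred on its own mean over the 6 libraries, its log2 CPM profile was nearer to the mean of the macrophage markers than to that of any other marker list, with a root mean square difference of 0.118, while its own values spanned 2.19.

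Scarb1, the gene of the scavenger receptor that exchanges cholesterol with high-density lipoprotein, had a log2 fold change of the opposite sign to Abca1 and Abcg1 (chromosome 5, 125757457 to 125821464, mm9). Scarb1 was at 21.1, 24.5 and 27.4 CPM in WT and at 37.2, 25 and 30.4 CPM in KO 1, KO 2 and KO 3. KO 2 lay inside the WT range, so the groups overlapped. The log2 fold change was 0.34 (SE 0.19, edgeR adjusted p 0.688), and 0.11 without KO 1, the highest library. KO 1 also had the highest sum of the 11 adipocyte markers, which was 542 to 1392 CPM in WT and 1665 to 2069 CPM in KO, and the part of fat in the Scarb1 values was not tested. The 5 steroidogenic markers summed to 8.09 to 9.39 CPM in WT and 8.47 to 13 CPM in KO, and Cyp11b1 and Hsd3b1 had 7 and 1 reads over all libraries.

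Pltp encodes the plasma phospholipid transfer protein, a secreted LXR target that remodels high-density lipoprotein (chromosome 2, 164665018 to 164683208, mm9, minus strand). It was at 243, 200.1 and 282 CPM in WT and at 185, 196 and 105 CPM in KO 1, KO 2 and KO 3. WT 2 and KO 2 were separated by a few CPM, while KO 3 stood far below. The log2 fold change was -0.58 (SE 0.27, edgeR adjusted p 0.654), and -0.35 without KO 3. Of its 1806 exonic bases, 495 are shared with Ctsa on the opposite strand. Counting did not use strand and left out reads over exons of more than 1 gene, so the Pltp counts come from the remaining exons.

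The receptor gene itself had a log2 fold change near 0. Nr1h3 encodes LXR alpha (chromosome 2, 91024218 to 91035273, mm9). It was at 27.6, 20.2 and 30.5 CPM in WT and at 29.5, 23.3 and 22.2 CPM in KO, with each KO library inside the WT range. The log2 fold change was -0.062 (SE 0.20, edgeR adjusted p 0.940), and 0.018 without KO 3, a change of sign. The partner genes were on 2 sides of 0 as well: of 9 receptor and cofactor genes 6 were higher and 3 lower, the groups overlapped for all 9, and the median was 0.035. Nr1h2, which encodes LXR beta, was at 50.1 ± 6.33 CPM in WT against 49.4 ± 3.25 CPM in KO. The 3 with the smallest unadjusted p were Rxrg (3.50 ± 1.54 and 6.12 ± 2.42 CPM), Ncoa1 (62.9 ± 7.82 and 72.0 ± 3.44 CPM) and Ncor1 (282 ± 23.9 and 305 ± 30.9 CPM).

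Mylip encodes the LXR-induced ubiquitin ligase that sends lipoprotein receptors to degradation (chromosome 13, 45485111 to 45507309, mm9). It was at 82.3, 77.5 and 87.9 CPM in WT and at 71.0, 66.6 and 48.3 CPM in KO. The WT libraries lay close together and above every KO library. The means were 82.6 ± 5.21 and 62.0 ± 12 CPM, 1.33-fold lower in KO, with a log2 fold change of -0.41 (SE 0.16, edgeR adjusted p 0.617), and -0.26 without KO 3. Of the receptor genes whose proteins it acts on, Vldlr was at 88.6 ± 22.1 CPM in WT against 144 ± 22.2 CPM in KO, with every KO library above every WT library (log2 fold change 0.70, SE 0.21, edgeR adjusted p 0.587). Lrp8 was at 11.7 ± 3.50 and 10.7 ± 1.91 CPM.

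Cyp27a1 encodes the mitochondrial sterol hydroxylase that makes an oxysterol ligand of LXRs (chromosome 1, 74760148 to 74784464, mm9, plus strand). It was at 24.8, 21.8 and 28.4 CPM in WT and at 31.8, 29.9 and 32.5 CPM in KO. Every KO library was above every WT library, with a narrow gap between WT 3 and KO 2, and KO 3 was the highest. The means were 25 ± 3.26 and 31.4 ± 1.36 CPM, 1.26-fold higher in KO (log2 fold change 0.33, SE 0.13, edgeR adjusted p 0.617). It was 0.30 without KO 3 and 0.24 without WT 2. Of 7 other oxysterol enzyme genes tested, 3 were higher and 4 lower. Fdx1, which encodes the ferredoxin that donates electrons to mitochondrial cytochromes P450, was at 10.9 ± 1.98 CPM in WT against 16.2 ± 0.772 CPM in KO (every KO library above, log2 fold change 0.57, edgeR adjusted p 0.587). Ch25h, whose enzyme makes another oxysterol ligand, was at 9.45 ± 3.52 and 4.66 ± 1.58 CPM (every KO library below, -1.02, edgeR adjusted p 0.602), and Cyp7b1, which breaks oxysterols down, at 5.22 ± 1.16 and 3.68 ± 1.28 CPM. Cyp7a1, the rate-limiting enzyme of bile acid synthesis in liver, was listed at 0 in every library.

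The 3 lysosomal genes had lower means in KO. Lipa encodes lysosomal acid lipase, which frees cholesterol from its ester (chromosome 19, 34566806 to 34601964, mm9). It was at 237, 219 and 329 CPM in WT and at 232, 183 and 104 CPM in KO 1, KO 2 and KO 3. KO 1 lay between WT 2 and WT 1, so the groups overlapped. The log2 fold change was -0.60 (SE 0.32, edgeR adjusted p 0.689), and -0.33 without KO 3.

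Npc2 encodes the soluble protein that takes cholesterol from the lysosome lumen and passes it to the membrane protein encoded by Npc1 (Npc2: chromosome 12, 86095509 to 86114062; Npc1: chromosome 18, 12348203 to 12394895, both mm9). Npc2 was at 287, 310 and 321 CPM in WT and at 252, 224 and 168 CPM in KO. It had the smallest unadjusted p of the 10 genes (0.0255), with 306 ± 17.4 CPM in WT against 215 ± 42.8 CPM in KO, a log2 fold change of -0.51 (SE 0.17, edgeR adjusted p 0.587), and -0.36 without KO 3. Npc1 was at 129, 120 and 146 CPM in WT and at 107, 110.2 and 67.5 CPM in KO (log2 fold change -0.47, SE 0.21, edgeR adjusted p 0.637), and at -0.28 without KO 3. For both genes the 3 KO libraries lay below the 3 WT libraries. Of the Npc1 exonic bases, 164 of 5209 are shared with a gene on the opposite strand.

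The wider lysosomal list leaned the same way: 16 of 20 genes were lower, with a median of -0.33 (19 lower and -0.18 without KO 3), and for 9 of them (45.0%, against 8.38% of all genes tested) every KO library lay below every WT library. The macrophage markers were lower with this list, 14 of 14, and their part in it was not tested. Gla, the alpha-galactosidase gene, was at 51.1 ± 7.0 CPM in WT against 31.5 ± 11.6 CPM in KO, with an edgeR adjusted p of 0.618. Not all lysosomal genes did so: Scarb2, a lysosomal membrane protein gene, was at 241 ± 17.5 and 251 ± 18.3 CPM, Mcoln1, a lysosomal calcium channel gene, at 25.1 ± 4.19 and 25.3 ± 1.56 CPM, and Smpd1, the acid sphingomyelinase gene, at 61.0 ± 5.62 and 62.6 ± 8.40 CPM, all chosen after their values were seen.

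**Figure D2:**
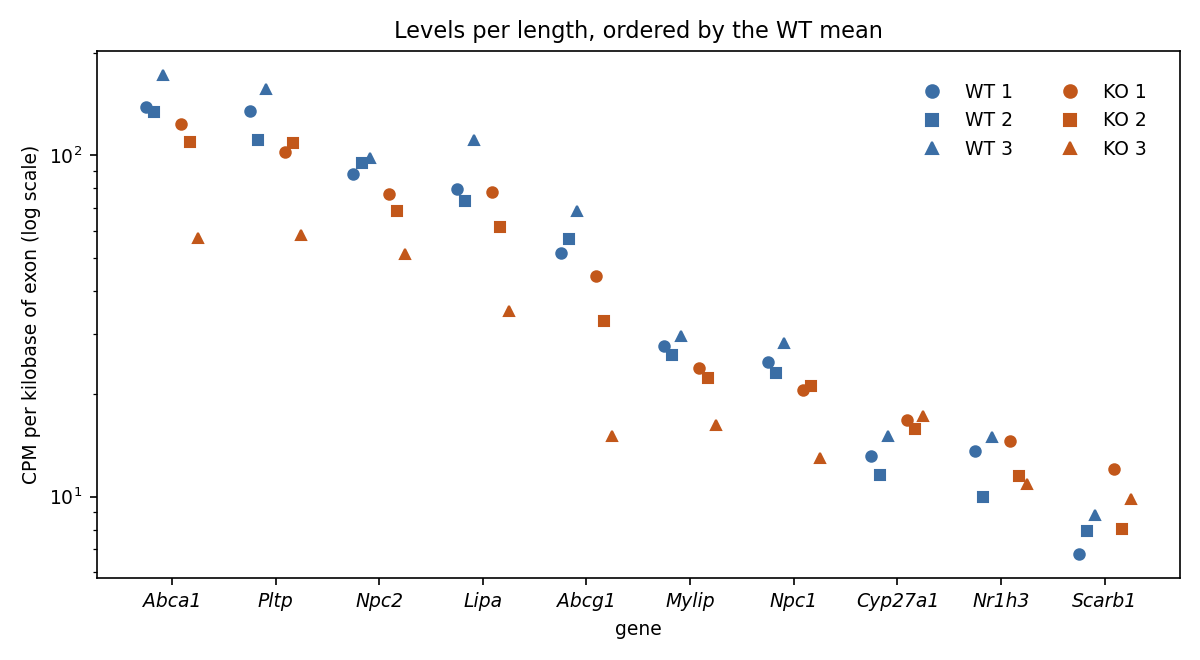
CPM per kilobase of exon (y axis, log scale) of the 10 genes in each library, ordered by the WT mean. Abca1 and Pltp are at the top in WT, near 148 and 134 over their full exonic length, and Scarb1 is the lowest at 7.84.

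Levels of different genes can be compared only per length of exon. In CPM per kilobase of full exonic length, Abca1 was the highest in WT at 148 ± 20.9, followed by Pltp (134 ± 22.6), Npc2 (93.8 ± 5.35), Lipa (88.0 ± 19.9), Abcg1 (59.0 ± 8.74), Mylip (27.7 ± 1.75), Npc1 (25.3 ± 2.62), Cyp27a1 (13.2 ± 1.73), Nr1h3 (12.8 ± 2.60) and Scarb1 (7.84 ± 1.02). Within each WT library, Abca1 was above Pltp over full exonic length, and Mylip was above Npc1. Npc2 was above Lipa in WT 1 and WT 2 but not in WT 3. Cyp27a1 was above Nr1h3 in WT 2 and WT 3 but not in WT 1. The Pltp value is a lower estimate, since its length includes the exonic bases shared with Ctsa. Over the 1311 bases not shared it was at 184 ± 31.2 in WT, above Abca1, so the order of these 2 genes depends on the length used. In KO, Abca1 (96.9 ± 35), Pltp (89.7 ± 27.3), Npc2 (65.8 ± 13.1) and Lipa (58.2 ± 21.8) overlapped across libraries, with KO 3 the lowest for each. Within each KO library, however, Abca1 and Pltp were both above Npc2 and Lipa. Cyp27a1 was at 16.6 ± 0.719 in KO, close to Npc1 at 18.2 ± 4.57. In KO 3 Abcg1 was at 15.1 CPM per kilobase, below Cyp27a1 at 17.2, while in WT 1 the same genes were at 51.6 and 13.1.

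**Figure D3:**
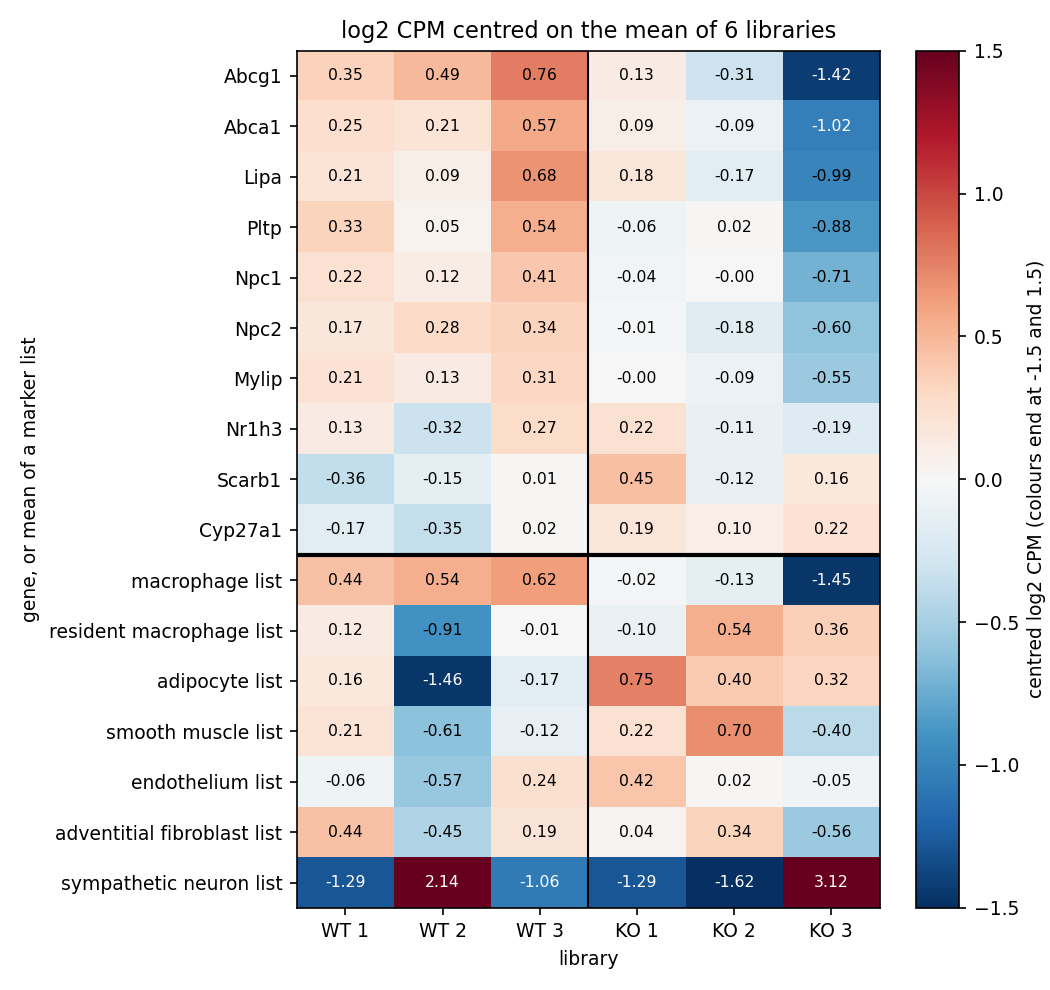
Log2 CPM of the 10 genes (upper rows) and the mean of marker lists (lower rows), each centred on its mean over the 6 libraries (columns), with blue below and red above that mean. KO 3 is the lowest column for 7 genes and for the macrophage list, at -1.45, and WT 2 the lowest for the adipocyte list, at -1.46.

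A group of 7 genes shared a pattern over the libraries. Abca1, Abcg1, Pltp, Lipa, Npc1, Npc2 and Mylip were each lowest in KO 3 and highest in WT 3, whereas KO 3 was the lowest library for 26.2% of all genes tested. Abca1 and Lipa differed by a root mean square of 0.0849 in centred log2 CPM, and Mylip and Npc2 by 0.0790, while Abcg1 and Cyp27a1 were farthest apart at 0.856. The distance to the macrophage markers was 0.118 for Abcg1, 0.243 for Abca1 and 0.295 for Lipa, for which this list was the nearest of the 10 marker lists compared. Pltp, Npc1, Npc2 and Mylip were nearest to the adventitial fibroblast markers (0.303 to 0.387), with the macrophage list next for all but Mylip. Nr1h3 (0.170) and Cyp27a1 (0.199) were nearest to the endothelial list, the latter at about the same distance from the steroidogenic list, and Scarb1 was nearest to the steroidogenic list (0.205), of which only 1 marker had enough reads to test. These distances are descriptions over 6 libraries, 2 of which stand apart. The macrophage markers were lower in KO in 14 of 14 cases (39.1% of all genes tested), 13 of them with every KO library below every WT library (8.38% of all genes tested), and their part in the lower Abca1, Abcg1, Lipa, Pltp, Npc1, Npc2 and Mylip values was not tested. Of 7 markers of resident macrophages, 6 were higher in KO, with sums of 403 to 774 CPM in WT and 628 to 1006 CPM in KO. The adventitial fibroblast markers summed to 4611 to 6902 CPM in WT and 2939 to 5752 CPM in KO, so those groups overlapped.

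Over the 14706 other genes with a mean of at least 1 CPM, the closest profiles by the same measure were found for each gene. For Abca1 they were Hexa, a lysosomal enzyme gene (0.0401), and Syk, a leukocyte tyrosine kinase gene (0.0499). For Abcg1 they were Pik3r5, a regulatory subunit gene of phosphoinositide 3-kinase gamma (0.0228), and Rab7b (0.0540). For Npc1 they were Gpx1, a glutathione peroxidase gene (0.0238), and Cmtm7 (0.0264), for Npc2 Snx5 (0.0554) and Pqlc1 (0.0578), and for Lipa Prdm1 (0.0482) and Fnip2 (0.0572). Pltp was closest to Naglu, a lysosomal enzyme gene (0.0437), and Rhod (0.0467), and Mylip to Tkfc (0.0361) and Irak4 (0.0416). Nr1h3 was closest to Ccdc9 (0.0267) and Adamtsl5 (0.0459), Cyp27a1 to Dyrk1b (0.0473) and Tlcd1 (0.0495), and Scarb1 to Card10 (0.0638) and Usp2 (0.0696).

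**Figure D4:**
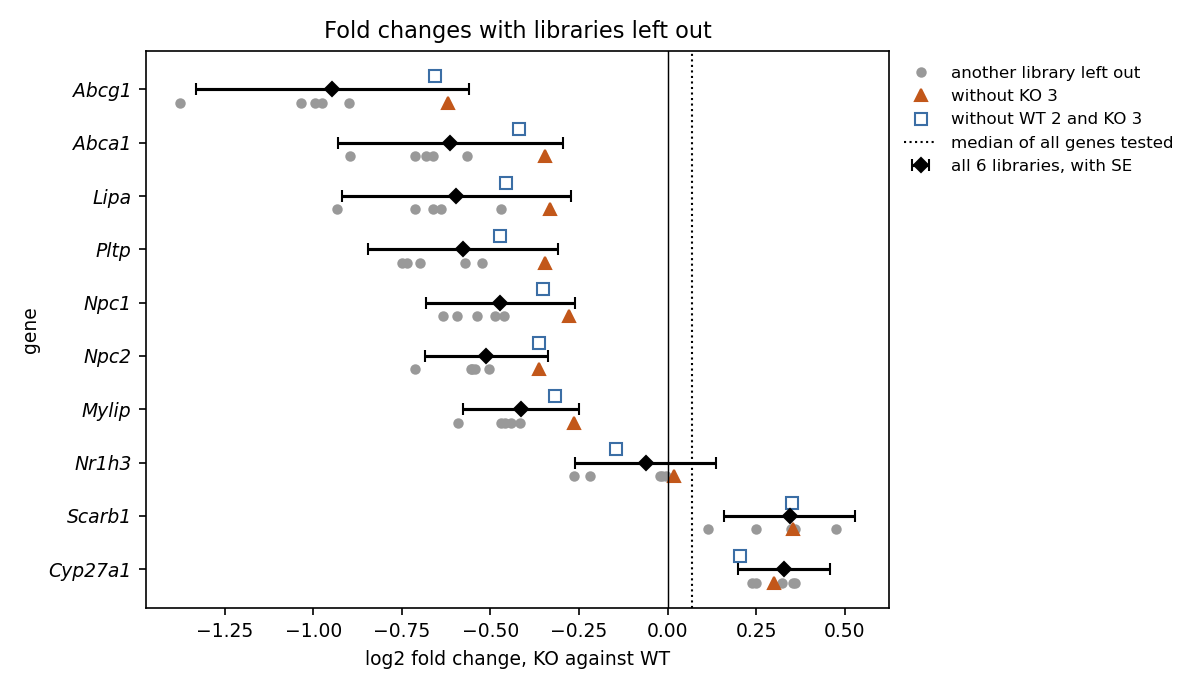
Log2 fold change of KO against WT (x axis) for each gene, with its SE for all 6 libraries, with each library left out, and without WT 2 and KO 3. Values without KO 3 lie nearer to 0 for the 7 genes from Abcg1 to Mylip, and Nr1h3 moves from -0.062 to 0.018.

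Leaving out both libraries with neuronal transcripts, a choice made after those transcripts were seen, moved the values of Abca1, Abcg1, Lipa, Pltp, Npc1, Npc2 and Mylip towards 0, and that of Nr1h3 away from it, from -0.062 to -0.15. The median of the 10 was then -0.36, against 0.0026 for all genes tested, and 8 of 10 were lower, against 49.5% of all genes. With 2 libraries a group, both KO libraries were below both WT libraries for 7 genes (Abca1, Abcg1, Mylip, Pltp, Npc1, Npc2 and Lipa), against 20.0% of all genes, and above for Cyp27a1, against 20.5%. These 7 genes had an unadjusted p under 0.05, against 5.84% of all genes lower at that level, and none of the 10 was higher at that level (4.35% of all genes). The edgeR adjusted p of the 10 was 0.321 (Pltp, log2 fold change -0.47) to 0.824 (Nr1h3), so none passed. Abcg1 was at -0.66 and Abca1 at -0.42 in that fit. In the same libraries the macrophage markers were lower in 14 of 14 cases with a median of -0.62.

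**Figure D5:**
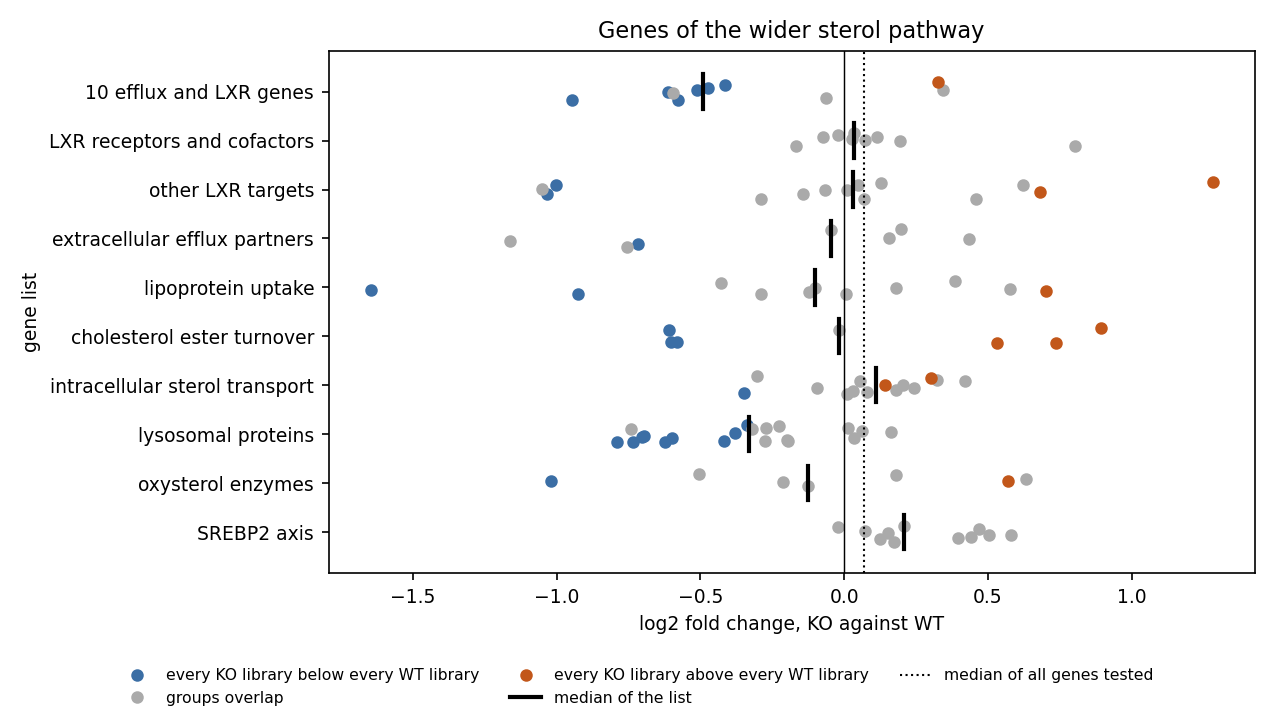
Log2 fold changes (x axis) of the 10 genes and of 9 lists of the wider sterol pathway, with a bar at each list's median and a dotted line at 0.068, the median of all genes tested. The 10 genes and the lysosomal list lie mostly left of 0, and the SREBP2 list lies mostly to the right with overlapping groups.

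Other LXR targets did not share 1 direction: of 14 tested, 8 were higher and 6 lower, with a median of 0.031. Apoe, the apolipoprotein that accepts cholesterol from macrophages, was at 24.9 ± 1.95 CPM in WT against 12.4 ± 2.31 CPM in KO, and Arl4c, a small GTPase gene, at 70.1 ± 11.9 and 34.3 ± 6.76 CPM, both with every KO library below every WT library. Apoe was low in all 6 libraries, at 10.1 to 27.0 CPM, and whether its reads come from an intact allele was not tested. Mlxipl, the gene of a glucose-responsive activator of fat synthesis, was at 13.5 ± 2.94 CPM in WT against 32.8 ± 8.41 CPM in KO, with every KO library above. The edgeR adjusted p was 0.587 for each. Fasn, the fatty acid synthase gene, was at 1384 ± 606 and 2220.4 ± 189 CPM, and Srebf1, the LXR target that drives lipogenesis, at 136 ± 14.4 and 141 ± 9.14 CPM; neither followed from the rule for named genes, and both were chosen after their values were seen. WT 2 had the lowest Fasn level, 692 CPM, and the lowest adipocyte sum, and the part of fat in these values was not tested.

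The 7 genes listed under cholesterol ester turnover include general lipase and lipid droplet genes. For 3 of the 7 every KO library lay below every WT library, and for 3 every KO library lay above. That is 42.9% each way, against 8.38% of all genes tested below and 8.33% above. Nceh1, which encodes a neutral ester hydrolase of macrophages, was at 108 ± 17 CPM in WT against 72.2 ± 14.4 CPM in KO, and Soat1, the gene of the enzyme that makes cholesterol esters, was chosen after its values were seen and stood at 137 ± 15.3 and 90.5 ± 37.0 CPM. Soat2, the other lower gene, was low in both groups at 1.43 ± 0.261 and 0.930 ± 0.269 CPM. On the other side were lipase genes strongly used in fat. Pnpla2 was at 79.6 ± 26.6 and 148 ± 28.2 CPM, Mgll at 118 ± 28.4 and 170 ± 19.2 CPM, and Lipe at 44.0 ± 18.7 and 73.3 ± 11.9 CPM. Soat2 and Lipe were also chosen after their values were seen. Plin2, a lipid droplet coat gene, was at 248 ± 43.9 and 245 ± 31.8 CPM. The edgeR adjusted p of Nceh1, Pnpla2 and Mgll was 0.587, 0.587 and 0.617.

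Among 11 genes of lipoprotein uptake, 5 were higher and 6 lower. Besides Vldlr, Olr1, a receptor gene for oxidised low-density lipoprotein, was at 9.10 ± 1.11 CPM in WT against 2.91 ± 1.76 CPM in KO, and the scavenger receptor gene Msr1 at 94.1 ± 18.9 and 49.5 ± 24.6 CPM, both with every KO library below every WT library (edgeR adjusted p 0.587 and 0.649). Of 7 extracellular partners of efflux 4 were lower and 3 higher, and the 3 with the smallest unadjusted p were Clu (1078 ± 101 and 655 ± 286 CPM), Saa3 (37.9 ± 16.5 and 16.9 ± 15.2 CPM) and Apoa2, which was under 1 CPM in both groups. Apoa1, the main acceptor for the Abca1 transporter and a gene of liver and gut, had 20 reads over all 6 libraries. Of 14 genes of intracellular sterol transport 11 were higher and 3 lower (21.4%, against 39.1% of all genes tested). Their median was 0.11, close to the 0.068 over all genes tested. Stard3, a sterol transfer protein gene of late endosomes, was at 25 ± 2.17 and 19.7 ± 2.5 CPM, Scp2 at 116 ± 16.8 and 143 ± 7.43 CPM, and Osbpl1a at 47.6 ± 3.47 and 54.9 ± 7.36 CPM.

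The opposing arm, cholesterol synthesis and uptake under SREBP2, had 10 of 11 genes with positive log2 fold changes and a median of 0.21, but the groups overlapped for all 11 and the smallest edgeR adjusted p was 0.811. Its 3 genes with the smallest unadjusted p were Insig1 (62.8 ± 15.0 and 85.2 ± 40.2 CPM), Fdft1 (44.2 ± 38.6 and 66.2 ± 71.5 CPM) and Insig2 (45.4 ± 3.51 and 47.8 ± 7.43 CPM). Fdft1, the squalene synthase gene, reached 88.8 CPM in WT 2 with 149 CPM in KO 3, the libraries that held the neuronal transcripts, while the other 4 libraries had 21.6 to 26 CPM. Hmgcs1, an enzyme gene of the same pathway, was listed at 0 in every library.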

How the data were processed

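RNA sequencing of 3 WT and 3 KO arteries was used. Per the file headers, the deposited raw counts per gene were made by featureCounts 1.4.6-p4 from exons in the UCSC mm9 genes, with neither strand nor multi-mapping options set. STAR (version given as 3.0) and DESeq2 are named too, per the submitters' processing notes. Exonic length was taken from the deposited table. Groups and replicate numbers came from sample titles.

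Counts were compared in edgeR 4.0.16 (R 4.3.3; filterByExpr with a minimum count of 10, TMM, glmQLFit, glmQLFTest, two-sided), adjusted over 15937 genes by Benjamini-Hochberg at 0.05. SEs came from the F statistic. Profiles used log2 CPM with a prior count of 2. The edgeR step was tested on simulated data. Alternatives were RLE, upper-quartile and total-count scaling, DESeq2 1.42.0, limma-voom (limma 3.58.1), other filters, a replicate block, leaving out libraries, and leaving out Rn45s and Lars2.

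The members and lists were chosen with earlier results of these data known. Named genes were the 10 members, Col15a1, up to 3 per pathway list with the smallest unadjusted p, and the 2 nearest profiles per member; other genes are background to these or were chosen after their values were seen. No replicate pair agreed within sampling noise. A few genes of the lists are left unnamed.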

Additional observations from a re-analysis of the deposited data

How the results depend on the processing

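None of the 10 genes was called under any of the 16 alternatives, and their median log2 fold change stayed negative, from -0.67 (without KO 1) to -0.31 (without KO 3) with 1 library left out. The count of all genes called was 0 except for 53 in DESeq2 (30 higher, 23 lower) and 1 without WT 2 and KO 3, the setting added after seeing the data; the cause was not tested. With 1 library left out it ranged from 0 to 0. Of the single genes, Nr1h3 alone turned direction, to 0.018 without KO 3 (-0.27 to 0.018 with 1 library left out). Scaling moved the median of all genes from 0.068 with TMM to 0.018 with total counts, and no member changed sign with scaling. The replicate block gave 0 calls, with Abcg1 at -1.06 and adjusted p 1.00, and no member at an unadjusted p under 0.05, against 3 lower and 1 higher without it. Whether the replicate numbers pair the samples was not settled. Deviations of same-numbered libraries from their group mean correlated at 0.426, -0.677 and -0.584, and WT 2 correlated best with KO 3 (0.768). WT 2 and KO 3 are the libraries with neuronal transcripts, and each stands apart in its group. These correlations therefore cannot show or exclude a pairing. The lowest member count was 463 reads in a library, so the number of mice limits the precision more than depth does.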
